A study of Mus musculus with 19 samples.

Results

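The genes that encode the factors of cytosolic translation were examined in hippocampal slices of mice that lack Fmr1 (KO) and of wild-type (WT) mice. Members were chosen by symbol: every measured gene whose name begins with Eif1 to Eif6, Eef1 or Eef2, or Pabpc1 to Pabpc6, together with Etf1 and Gspt1. This gave 66 of 14459 genes, which were sorted into 14 roles. The study asked how the loss of FMRP, the RNA-binding protein that Fmr1 encodes and that is missing in fragile X syndrome, alters the ribosomes on neuronal mRNAs. It paired ribosome profiling, which sequences the mRNA pieces that ribosomes shield from RNase (footprints), with sequencing of cytoplasmic RNA from the same lysates. Values are given as TPM, a level scaled for gene length and for the total of a library.

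KO slices came from Fmr1 KO males on a C57BL/6 background, and WT slices from wild-type male littermates of the same strain. All mice were 28 to 35 days old, and all were anesthetized with ketamine and xylazine and perfused before the slices were cut. The labels name no other allele or treatment. Each biological replicate pooled 8 to 10 slices of 400 µm from 6 to 8 mice of a genotype, so the spread between single mice is not seen. All slices rested at 30 °C for 3 to 4 h and then received cycloheximide, which stalls elongating ribosomes, at 100 µg/ml. The protocol removed CA3 to enrich CA1, whereas the source label names hippocampal-cortical slices; hippocampal is used below. Of 19 labelled samples, 14 libraries from 7 lysates were used: 3 KO and 4 WT for footprints and 3 KO and 4 WT for RNA. The other 5 samples are not analysed here.

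Translation of an mRNA starts when eIF2 brings the initiator tRNA to the small ribosomal subunit, eIF3 holds that complex together, and eIF4E, eIF4G and eIF4A bind and unwind the capped end of the mRNA. eEF1A then delivers each aminoacyl-tRNA, eEF2 moves the ribosome along by a codon, eRF1 and eRF3 release the finished chain at a stop codon, and cytoplasmic poly(A)-binding protein bridges the tail to the cap. Several of these factors are themselves made from TOP mRNAs, which begin with a run of pyrimidines and whose translation is set by mTOR signalling. mTOR also phosphorylates the eIF4E-binding proteins, which otherwise keep eIF4E from eIF4G.

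Library totals were 15.57 to 22.71 M estimated counts for footprints and 4.97 to 9.96 M for RNA. Fmr1 served as the check of the labels. Its footprints were 4.81 ± 0.222 TPM in KO and 44.4 ± 1.53 TPM in WT slices, and its RNA was 4.42 ± 0.771 TPM in KO and 17.3 ± 1.46 TPM in WT slices (SD, n = 3 KO and 4 WT, as for all means of TPM below). The log2 fold changes were -3.21 ± 0.06 (SE, adjusted p = 9.12e-12) in footprints and -2.01 ± 0.11 (SE, adjusted p = 9.82e-08) in RNA by edgeR's quasi-likelihood test, the test behind every adjusted p below. The lowest TPM of any gene was 0.880, and low counts varied less between replicates than counting noise gives. For genes averaging 20 to 50 counts, the median ratio of variance to mean was 0.158 in KO and 0.174 in WT footprints and 0.380 in KO and 0.406 in WT RNA, where Poisson counting would give a value near unity. The sources used here do not state the step behind it, and the p-values may be too small. Markers of excitatory neurons summed to 3215 to 3370 footprint TPM in KO and 3264 to 3534 TPM in WT slices, with 0 of 3 past the test. CA3 markers were present despite the dissection, with summed footprints of 127.7 to 129.9 TPM in KO and 135.7 to 142.2 TPM in WT slices, and 2 of 4 were lower in KO. CA1 markers summed to 211 to 224 TPM in KO and 234 to 243 TPM in WT slices (1 of 3 lower).

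Other cell types moved with genotype. All 4 microglial markers (C1qa, C1qb, Csf1r, Cx3cr1) had fewer footprints in KO, with sums of 255 to 272 TPM in KO and 311.0 to 320.4 TPM in WT slices. All 3 markers of meningeal fibroblasts (Dcn, Col1a1, Col1a2) were lower as well, summing to 98.2 to 107 TPM in KO and 126 to 148 TPM in WT slices. All 4 thalamic markers (Tcf7l2, Prkcd, Ramp3, Synpo2) were higher, summing to 80.2 to 83.6 TPM in KO and 52.51 to 72.01 TPM in WT slices. Both measured red blood cell markers (Hba-a2, Hbb-bs) were lower, with sums of 3.25 to 4.72 TPM in KO and 10.5 to 11.9 TPM in WT slices. Of the myelin markers 2 of 4 were lower, with sums of 10559 to 10838 TPM in KO and 10895 to 12161 TPM in WT slices, and of the dentate granule markers 1 of 3 (145.4 to 157.1 TPM in KO and 159.7 to 177.7 TPM in WT slices). For astrocytes (4 markers) and choroid plexus (2 measured) 1 marker was higher and 1 lower, and no marker of interneurons or endothelium passed. No value in these data lies below 0.880 TPM, so the absence of a cell type could not be read from its markers. In bulk slices fewer cells of a type and less RNA per cell cannot be told apart. The part of these shifts in the values below was not tested.

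Footprints of translation factors were more abundant in KO than in WT slices for 20 genes, by small amounts. Of the 66 genes, these 20 rose (30.3%), 0 fell and 46 did not pass an adjusted p of 0.05, whereas 8.15% of all 14438 genes tested rose and 10.4% fell. The genes that rose were spread over initiation, elongation (Eef1a1, Eef1a2), termination (Etf1) and poly(A) binding (Pabpc1). Their median log2 fold change was 0.18, a 1.13-fold higher level, with a range of 0.11 to 0.64. All 66 genes were abundant enough to be tested in footprints, in RNA and in their ratio. Over all of them the median log2 fold change was 0.09, against -0.0001 over all genes tested, and 50 of 66 values were above 0. Their median SE was 0.042, against 0.054 over all genes tested. The part of this smaller SE in the share called was not tested. Beside the 0 that fell by edgeR, 1 of 30 genes with an unadjusted p under 0.05 was lower. The matching count over all genes is not given here. DESeq2 called 19 of the 66 higher (28.8%, beside 6.5% of all genes) and 0 lower. Every KO library lay above every WT library for 27 of the 66 genes (15.1% of all genes) and below for 1, Eef1b2 (15.6% of all genes).

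Summed over the 66 genes, translation factors held 1.147% to 1.164% of all footprint TPM in the KO libraries and 1.101% to 1.129% in the WT libraries. These ranges did not overlap. The count of genes that rose depended on single libraries. It was 8 without KO replicate 3, 9 without WT replicate 2 and likewise without WT replicate 4, and 11 without KO replicate 1. Over all genes the share that rose in those fits was 5.22%, 5.49%, 4.98% and 5.61%. Only 6 genes, Eif2b3, Eif4b, Eif4g1, Eif5, Etf1 and Pabpc1, kept their call under all 14 alternative fits. Each of the other 14 lost it under 1 to 10 of them.

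**Figure D1:**
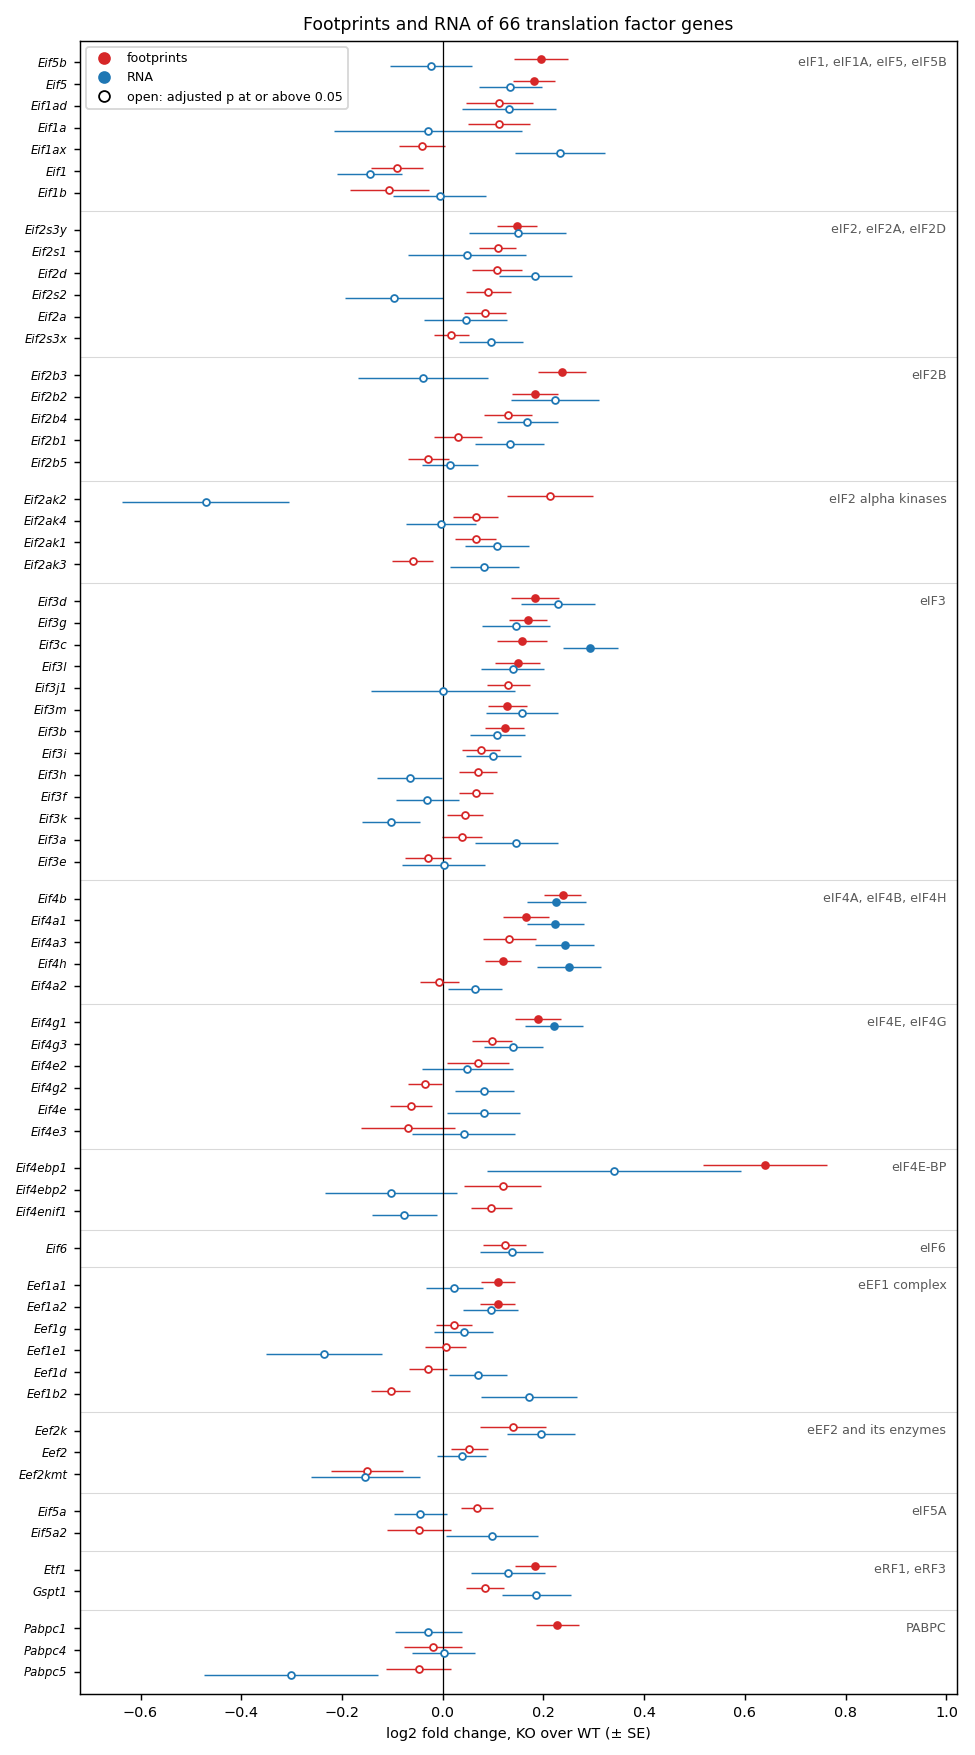
Log2 fold change of KO over WT (horizontal axis, ± SE) in footprints (red) and RNA (blue) for each of the 66 translation factor genes, grouped by role. Filled points have an adjusted p under 0.05; the filled red points lie at 0.11 to 0.64 and the filled blue points at 0.22 to 0.29, all on the KO side.

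Among the genes that set up the scanning ribosome and choose the start codon (eIF1, eIF1A, eIF5, eIF5B), 2 of 7 rose in footprints. The 7 include Eif1ad, which entered by its symbol. Beside this and each count by role below stands the 8.15% of all genes that rose. Eif5 encodes the protein that makes eIF2 hydrolyse its GTP at the start codon. Its footprints were 195, 172 and 176 TPM in KO slices, against 164, 150.0, 163 and 158 TPM in WT slices. The groups did not overlap, and the log2 fold change was 0.18 ± 0.04 (SE, adjusted p = 0.0122). Eif5b, whose product joins the large subunit, had 30.3, 26.1 and 27.6 TPM in KO slices, against 25.8, 22.3, 25.4 and 23.9 TPM in WT slices. Every KO library was higher, with a log2 change of 0.19 ± 0.05 (SE, adjusted p = 0.0257), a call that was lost without KO replicate 1 or 3 or WT replicate 2 or 4. Eif1, the gatekeeper of start codon choice, had the highest footprint TPM of the members. It had 1633 ± 109.9 TPM in KO and 1729 ± 48.2 TPM in WT slices and did not pass the test (log2 change -0.09, SE 0.05, adjusted p = 0.267).

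eIF2 carries the initiator tRNA, and 1 of 6 genes of this role, Eif2s3y, rose. Eif2s3y is the Y-linked copy of the gamma subunit, and all mice were male. Its footprints were 24.1, 23.4 and 24.7 TPM in KO slices, against 22.1, 20.96, 21.7 and 21.6 TPM in WT slices. The KO libraries lay above the WT libraries, with a log2 change of 0.15 ± 0.04 (SE, adjusted p = 0.0235), but the call was lost under 6 of 14 alternatives, among them the fits without KO replicate 3 and without WT replicate 2, 3 or 4. Its X-linked partner Eif2s3x had a log2 change of 0.02 ± 0.03 (SE, adjusted p = 0.833). Reads of these near copies may be shared, so the split between them is uncertain. The beta subunit gene Eif2s2, with the most footprints of the role, had 141 ± 7.31 TPM in KO and 132 ± 7.04 TPM in WT slices and a log2 change of 0.09 ± 0.04 (SE, adjusted p = 0.191).

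eIF2B reloads eIF2 with GTP and is the step that the integrated stress response slows, and 2 of its 5 subunit genes rose. Eif2b3, for the gamma subunit (chr4:117019399-117086852 on GRCm38), had footprints of 19.02, 19.1 and 19.01 TPM in KO slices, against 14.9, 15.7, 16.6 and 16.9 TPM in WT slices. The 3 KO values were close together and above every WT value, with a log2 change of 0.24 ± 0.05 (SE, adjusted p = 0.00655). Eif2b2, for the beta subunit, had 39.4, 37.4 and 39.3 TPM in KO slices, against 34.9, 33.5, 35.5 and 31.6 TPM in WT slices, again without overlap. Its log2 fold change was 0.18 ± 0.05 (SE, adjusted p = 0.0178), a call that was lost without KO replicate 3. Eif2b1 had 39.4 ± 1.22 TPM in KO and 38.2 ± 2.40 TPM in WT slices and did not pass (log2 change 0.03, SE 0.05, adjusted p = 0.760). None of the 4 kinases that phosphorylate eIF2 alpha and thereby block eIF2B passed the test (smallest adjusted p = 0.142). Eif2ak1, the heme-regulated kinase and the one with the most footprints, had 42.3 ± 0.547 TPM in KO and 40.3 ± 1.47 TPM in WT slices.

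eIF3 is the largest initiation factor, and 6 of its 13 subunit genes rose (Eif3b, Eif3c, Eif3d, Eif3g, Eif3l, Eif3m), with 12 of 13 log2 fold changes above 0 and a median of 0.12. Eif3g encodes an RNA-binding subunit, and its footprints were 127, 123 and 119.5 TPM in KO slices, against 108, 104, 116 and 106 TPM in WT slices. Each KO library was above each WT library, with a log2 change of 0.17 ± 0.04 (SE, adjusted p = 0.0102). Eif3d, whose product can bind the cap of some mRNAs, had 59.3, 53.6 and 52.1 TPM in KO slices, against 47.1, 45.5, 51.5 and 48.2 TPM in WT slices. The groups were apart by a narrow margin, and the log2 fold change of 0.18 ± 0.05 (SE, adjusted p = 0.0194) lost its call without KO replicate 1 or WT replicate 2. Eif3m had 141, 128 and 136 TPM in KO slices, against 125, 117, 123 and 125 TPM in WT slices, and it had a log2 change of 0.13 ± 0.04 (SE, adjusted p = 0.0349), which lost its call under 7 of the 14 alternatives, among them the fits without KO replicate 1 or 3 and without WT replicate 2, 3 or 4. Eif3l had 60.9 ± 4.26 TPM in KO and 54.6 ± 2.23 TPM in WT slices, a log2 change of 0.15 ± 0.04 (SE, adjusted p = 0.0364). Eif3b, a core subunit that binds RNA, had 45.9 ± 1.35 TPM in KO and 41.9 ± 1.56 TPM in WT slices, with a log2 change of 0.12 ± 0.04 (SE, adjusted p = 0.0448). Both lost their calls under 8 alternatives, among them the fits without KO replicate 1 or 3 and without WT replicate 2 or 4. Eif3k, the subunit gene with the highest footprint TPM, had 168 ± 3.44 TPM in KO and 162 ± 4.70 TPM in WT slices and did not pass (log2 change 0.04, SE 0.04, adjusted p = 0.474).

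eIF4A is the helicase that unwinds the mRNA leader, and eIF4B and eIF4H stimulate it; 3 of 5 genes of this role rose. Eif4b (chr15:102073773-102097173 on GRCm38) had the smallest p of all 66 genes. Its footprints were 70.4, 71.97 and 70.2 TPM in KO slices, against 61.05, 58.2, 62.4 and 57.2 TPM in WT slices. The groups were well apart, and the log2 fold change was 0.24 ± 0.04 (SE, adjusted p = 0.00208). Eif4a1, one of the genes for the helicase itself, had 535, 475 and 496 TPM in KO slices, against 455, 417, 473 and 436 TPM in WT slices. The groups were apart, with a log2 change of 0.17 ± 0.05 (SE, adjusted p = 0.0254) that lost its call without KO replicate 1 or 3 or WT replicate 2 or 4. Eif4h had 533 ± 17.2 TPM in KO and 488 ± 16.5 TPM in WT slices and a log2 change of 0.12 ± 0.04 (SE, adjusted p = 0.0360), lost without the same 4 libraries in turn. Eif4a2, the paralog of Eif4a1 with more footprints, had 562 ± 12.3 TPM in KO and 562 ± 18.2 TPM in WT slices and a log2 change of -0.01 ± 0.04 (SE, adjusted p = 0.943).

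Of the genes for the cap-binding protein eIF4E and its scaffold eIF4G, 1 of 6 rose. Eif4g1 (chr16:20672720-20692883 on GRCm38), the main scaffold, had footprints of 79.1, 69.03 and 73.1 TPM in KO slices, against 68.2, 63.4, 64.6 and 61.2 TPM in WT slices. The KO libraries were spread but all above the WT libraries, and the log2 fold change was 0.19 ± 0.05 (SE, adjusted p = 0.0154). Eif4e itself had 218 ± 5.70 TPM in KO and 226 ± 8.11 TPM in WT slices and did not pass, at -0.06 ± 0.04 (SE, adjusted p = 0.359). Among the 3 genes for eIF4E-binding inhibitors, Eif4ebp1 had the largest fold change of all members at a low level. Its footprints were 5.16, 5.13 and 6.76 TPM in KO slices, against 3.44, 4.18, 3.38 and 3.52 TPM in WT slices, without overlap, and the log2 fold change was 0.64 ± 0.12 (SE, adjusted p = 0.0311). The call was lost without KO replicate 3 or WT replicate 1, 3 or 4, and its adjusted p ranged up to 0.194 over the alternatives. Eif4ebp2, the form with more footprints in these slices, had 31.6 ± 2.70 TPM in KO and 28.8 ± 1.92 TPM in WT slices and a log2 change of 0.12 ± 0.08 (SE, adjusted p = 0.374). Eif6, whose product keeps ribosomal subunits apart, had 64.8 ± 2.14 TPM in KO and 59.2 ± 2.88 TPM in WT slices and narrowly missed the threshold at 0.12 ± 0.04 (SE, adjusted p = 0.0661).

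For elongation, both genes for eEF1A rose and the other 4 genes of the eEF1 group did not pass. These 4 include Eef1e1, which entered by its symbol. Eef1a1 had footprints of 1142, 1179 and 1162 TPM in KO slices, against 1067, 1079.8, 1078 and 1056 TPM in WT slices. Each group was tight and they did not overlap, with a log2 change of 0.11 ± 0.03 (SE, adjusted p = 0.0440). Eef1a2, the form that replaces Eef1a1 in mature neurons and muscle, had 1292, 1249.8 and 1215 TPM in KO slices, against 1127, 1159, 1197 and 1137 TPM in WT slices. Its log2 fold change was 0.11 ± 0.03 (SE, adjusted p = 0.0485). Both calls lay close to the threshold and were lost under 8 (Eef1a1) and 10 (Eef1a2) of 14 alternatives, including the fits without KO replicate 2 or 3 or without any single WT replicate. Eef2, for the translocase, had 344 ± 16.02 TPM in KO and 329.9 ± 10.9 TPM in WT slices and did not pass (log2 change 0.05, SE 0.04, adjusted p = 0.394), and neither did its kinase Eef2k or its methyltransferase Eef2kmt. Eif5a, which helps ribosomes past difficult peptide bonds, had 1126 ± 25.8 TPM in KO and 1069 ± 11.8 TPM in WT slices with a log2 change of 0.07 ± 0.03 (SE, adjusted p = 0.174).

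In termination, Etf1, the gene for eRF1 that reads the stop codon, had footprints of 124, 111 and 123 TPM in KO slices, against 106, 102, 105 and 105 TPM in WT slices. All KO libraries were above the WT libraries, with a log2 change of 0.18 ± 0.04 (SE, adjusted p = 0.00992). Gspt1, for its GTPase partner eRF3, had 120.1 ± 6.14 TPM in KO and 113 ± 3.23 TPM in WT slices and did not pass (log2 change 0.08, SE 0.04, adjusted p = 0.152). Of the poly(A)-binding protein genes, Pabpc1 (chr15:36595658-36609581 on GRCm38), the main form, had 54.2, 56.9 and 56.1 TPM in KO slices, against 50.1, 47.1, 47.2 and 45.1 TPM in WT slices. Its libraries did not overlap, and the log2 fold change was 0.23 ± 0.04 (SE, adjusted p = 0.00456). Pabpc4 had 4.78 ± 0.166 TPM in KO and 4.81 ± 0.241 TPM in WT slices and a log2 change of -0.02 ± 0.06 (SE, adjusted p = 0.927).

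**Figure D2:**
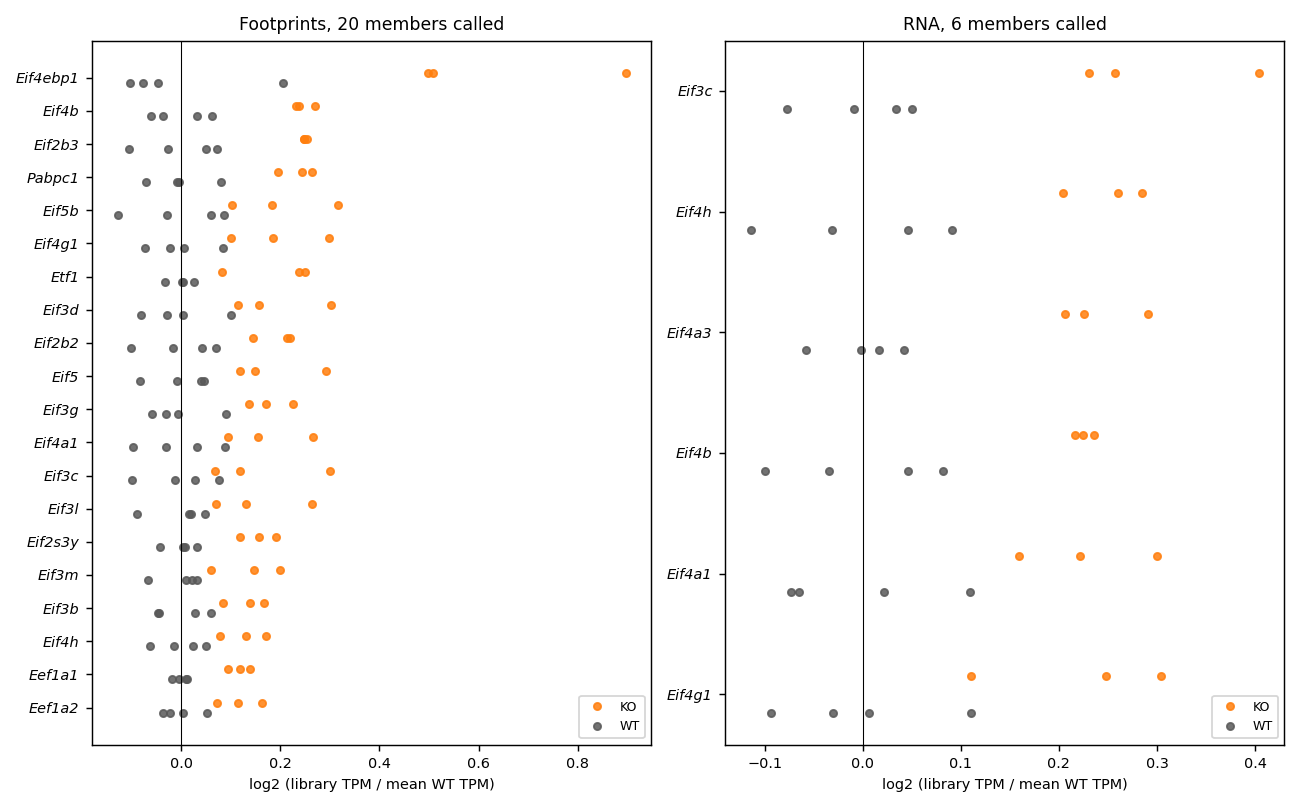
Log2 ratio of each library's TPM to the mean of the 4 WT libraries (horizontal axis) for the 20 genes that rose in footprints (left) and the 6 that rose in RNA (right), with KO libraries in orange and WT libraries in grey. In footprints the KO points lie to the right of all WT points for 19 of the 20 genes, and in RNA for 5 of the 6. The genes were picked by a test on these same libraries, so this separation is no further evidence. Over all genes it held for 15.1% in footprints and 9.03% in RNA.

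In RNA, fewer translation factors passed the test, again all on the side of the KO slices. Of 66 genes, 6 rose (9.09%) and 0 fell, whereas 2.11% of all 13877 genes tested rose and 2.77% fell. The 6 were Eif3c, Eif4a1, Eif4a3, Eif4b, Eif4g1 and Eif4h, so 4 of the 5 genes of the eIF4A role were among them. The median log2 fold change of the 66 genes was 0.08, against -0.005 over all genes tested, and 48 values were above 0. Their median SE was 0.068, against 0.085 over all genes tested. Of 20 genes with an unadjusted p under 0.05 in edgeR, 19 were higher. The share of all genes under that p is not given here, so this count has no background beside it. DESeq2 also called 6 higher (9.09%, beside 1.78% of all genes) and 0 lower. Every KO library lay above every WT library for 15 genes (9.03% of all genes) and below for 1, Eif2ak2 (10% of all genes). The median over members of the log2 ratio to the WT mean was 0.12 in KO replicate 1, 0.12 in KO replicate 2 and 0.01 in KO replicate 3, and without KO replicate 3 the median fold change was 0.13. The members held 1.514% to 1.595% of all RNA TPM in KO and 1.462% to 1.513% in WT libraries. Markers of neurons and of other cells differed in RNA too. Those of excitatory neurons summed to 3663 to 3913 TPM in KO and 3931 to 3983 TPM in WT slices (0 of 3 past the test). Of the CA1 markers 1 of 3 was lower (402 to 445 TPM in KO, 466 to 516 TPM in WT slices). For dentate granule cells 1 of 3 was lower (127 to 138 TPM in KO, 142 to 156 TPM in WT slices). For CA3 1 of 4 was lower (258 to 277 TPM in KO, 273 to 281 TPM in WT slices). Of the 2 measured choroid plexus markers 1 was higher. Of the microglial markers 3 of 4 were lower, with RNA sums of 429 to 462 TPM in KO and 508 to 520.2 TPM in WT slices, and 3 of 4 thalamic markers were higher (74.4 to 83.0 TPM in KO and 41.2 to 60.8 TPM in WT slices). Both red blood cell markers were lower (4.31 to 9.34 TPM in KO and 17.4 to 25.9 TPM in WT slices), as was 1 of 3 fibroblast markers (sums of 50.2 to 55.4 TPM in KO and 60.4 to 74.3 TPM in WT slices). Their part in the RNA result was not tested.

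Eif3c (chr7:126546911-126566366 on GRCm38), for a core subunit of eIF3, had the smallest p, and its RNA was 97.97, 88.5 and 86.9 TPM in KO slices, against 75.8, 70.2, 76.6 and 73.6 TPM in WT slices. No libraries overlapped, and the log2 fold change of 0.29 ± 0.05 (SE, adjusted p = 0.00999) kept its call in all 14 alternatives. In footprints Eif3c had 144, 122 and 127 TPM in KO slices, against 119, 109, 123 and 116 TPM in WT slices. There 1 KO library was within the WT range, and the log2 fold change of 0.16 ± 0.05 (SE, adjusted p = 0.0466) was lost under 8 alternatives, among them the fits without KO replicate 1 or 3 and without WT replicate 1, 2 or 4. Eif4h RNA was 278, 289 and 294 TPM in KO slices, against 237, 257, 249.6 and 223 TPM in WT slices, and Eif4b RNA was 106, 107 and 107 TPM in KO slices, against 89.2, 96.6, 85.2 and 94.3 TPM in WT slices. Both genes had all KO libraries on the higher side. The log2 fold change was 0.25 ± 0.06 (SE, adjusted p = 0.0352) for Eif4h and 0.23 ± 0.06 (SE, adjusted p = 0.0362) for Eif4b. Eif4a1 RNA was 569 ± 28.04 TPM in KO and 486 ± 29.3 TPM in WT slices, a log2 change of 0.22 ± 0.06 (SE, adjusted p = 0.0326). Eif4a3, the helicase of the exon junction complex that marks spliced mRNAs rather than an initiation factor, rose in RNA alone, at 95.8, 94.5 and 100.2 TPM in KO slices, against 82.9, 81.8, 84.3 and 78.7 TPM in WT slices. Its log2 fold change was 0.24 ± 0.06 (SE, adjusted p = 0.0288) in RNA and 0.13 ± 0.05 (SE, adjusted p = 0.110) in footprints, and a difference between these was not called (log2 change -0.12, SE 0.08, adjusted p = 0.625). Eif4g1 RNA, with 1 KO library within the WT range, was 82.9 ± 5.67 TPM in KO and 71.05 ± 4.25 TPM in WT slices and had a log2 change of 0.22 ± 0.06 (SE, adjusted p = 0.0376).

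The RNA count depended on single libraries too. It was 1 without WT replicate 4, 2 without KO replicate 2 or WT replicate 1, 3 without KO replicate 1 or WT replicate 2, and 5 without KO replicate 3 or WT replicate 3. Over all genes, where 2.11% rose with every library, the share that rose was 0.679% without WT replicate 4, 0.855% without KO replicate 2, 1.08% without WT replicate 1, 1.01% without KO replicate 1, 1.29% without WT replicate 2, 2.53% without KO replicate 3 and 1.67% without WT replicate 3. Eif3c was called in each of these fits. The other 5 genes each lost their call under 5 to 8 of the 14 alternatives. Both assays called 5 genes (Eif3c, Eif4a1, Eif4b, Eif4g1, Eif4h), which is 5 of the 20 that rose in footprints and 5 of the 6 that rose in RNA. The assays share their lysates.

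Whether footprints changed other than the RNA did was asked as translational efficiency (TE), with a term for genotype within assay in one model of the 14 libraries. None of the 66 genes passed: 0 were higher and 0 lower by edgeR, with a smallest adjusted p of 0.207. Over all 14435 genes tested, 0.0139% were higher and 0.0208% lower. An unadjusted p under 0.05 was found for 6 members, 4 of them higher, without a matching count over all genes. DESeq2 called 0 members. The median log2 TE change was -0.02 for members and -0.01 for all genes tested, with values from -0.28 to 0.68 and a median SE of 0.08. Pabpc1 had the smallest p, with a log2 TE change of 0.25 ± 0.08 (SE, adjusted p = 0.207). Its RNA was 107, 110.2 and 105 TPM in KO slices, against 108, 113, 96.9 and 121 TPM in WT slices, which overlapped between the groups, beside footprints that did not. The log2 RNA change of Pabpc1 was -0.03 ± 0.07 (SE, adjusted p = 0.874). With that SE, a TE change of the size of the median footprint change among the genes that rose (0.18) was not detectable after adjustment over all genes.

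Other genes of the pathway, from lists made from general knowledge, were read in the same fits. Of 40 regulators and partners of the cytosolic factors, 11 rose in footprints (27.5%) and 1 fell, with a median log2 fold change of 0.07. Over all genes tested, 8.15% rose and 10.4% fell. Impact, whose product restrains the eIF2 alpha kinase GCN2 and is abundant in neurons, had footprints of 466.9 ± 9.59 TPM in KO and 405 ± 14.8 TPM in WT slices. Its log2 fold change was 0.20 ± 0.04 (SE, adjusted p = 0.00363) in footprints and 0.29 ± 0.06 (SE, adjusted p = 0.0205) in RNA. Pdcd4, an inhibitor of eIF4A, had a log2 footprint change of 0.18 ± 0.03 (SE, adjusted p = 0.00410), and Paip1, a partner of the poly(A)-binding protein, one of 0.22 ± 0.04 (SE, adjusted p = 0.00450). The gene that fell was Mtor, named after its value was seen, with 19.7 ± 1.14 TPM in KO and 21.7 ± 1.14 TPM in WT slices. Its log2 change was -0.15 ± 0.05 (SE, adjusted p = 0.0418). In RNA, 3 of the 40 rose (Impact, Ddx3x, Abcf1), which is 7.5% beside 2.11% of all genes tested, and 0 fell. Of 12 mitochondrial translation factors, 3 rose in footprints (25%, beside 8.15% of all genes tested) and 0 fell. They were Gfm1, the mitochondrial counterpart of eEF2, by 0.16 ± 0.04 (SE, adjusted p = 0.0169), Tufm, that of eEF1A, by 0.13 ± 0.04 (SE, adjusted p = 0.0211), and Mtif3, an initiation factor, by 0.19 ± 0.06 (SE, adjusted p = 0.0322). Tufm also rose in RNA, by 0.26 ± 0.07 (SE, adjusted p = 0.0358). Of these footprint calls, those of Impact, Pdcd4 and Paip1 held under all 14 alternatives, Gfm1 lost its call under 1, Tufm under 4, Mtif3 under 7 and Mtor under 9. The losses came, among others, without KO replicate 1 or 3 or WT replicate 4 for Tufm, without KO replicate 1 or 2 or WT replicate 1, 2 or 4 for Mtif3, and without KO replicate 2 or 3 or WT replicate 2, 3 or 4 for Mtor. In RNA, Impact lost its call under 5 (without KO replicate 1 or 2 or WT replicate 4, among others) and Tufm under 9 (without KO replicate 2 or 3 or any single WT replicate, among others).

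The number of footprints per RNA, taken as log2 of footprint TPM over RNA TPM within each WT lysate, differed widely among the members. It describes how densely an mRNA of a given level was covered, on a relative scale. Among all 14459 genes its median was -0.36, with the 10th percentile at -1.67 and the 90th at 0.92. The members' median was -0.20 in KO lysates and -0.17 in WT lysates. In WT they ranged from -2.44 to 3.62, with 14 of 66 above the 90th percentile of all genes and 6 below the 10th. When CPM, counts scaled to the library total, replaced TPM, the WT median was 0.13 for members and -0.06 for all genes, so that only the distance between them carries over.

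In the role of eIF1, eIF1A, eIF5 and eIF5B coverage was dense: 6 of 7 genes were above the 90th percentile, with a median of 1.45. The other gene, Eif1ad, which entered by its symbol, stood at -0.30 ± 0.27 (SD, n = 4 WT lysates). Eif1ax stood at 2.42 ± 0.09 (SD, n = 4 WT lysates), with values of 2.51, 2.48, 2.31 and 2.38. Above it was only Eif3j1, a loosely bound eIF3 subunit, with 3.90, 3.56, 3.74 and 3.29 in the 4 lysates and a mean of 3.62 ± 0.26. Eif3j1 has a near-identical copy, Eif3j2, that is not analysed here and could share its reads, so this value is uncertain. Eif2s2 (1.94 ± 0.11) and Gspt1 (1.90 ± 0.09) followed and overlapped each other.

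At the other end were Pabpc4 at -2.44 ± 0.03, Eef1g at -2.30 ± 0.05, Eef1a1 at -2.16 ± 0.07 and Eif4e3 at -2.14 ± 0.28. Eef1g encodes a structural subunit of the exchange factor for eEF1A, and Eif4e3 an atypical cap-binding protein. The first 3 of these did not overlap their neighbours in the order, apart from Eef1a1, which overlapped Eif4e3. Eef1g, Eef1a1 and Eef2 are among the 11 members listed as TOP mRNAs, a list made from general knowledge. Its median was -0.92 in KO and -1.06 in WT lysates, and in WT 8 of the 11 lay below the median of all genes and 3 below the 10th percentile. The 55 members outside that list had a median of -0.13 in KO and -0.05 in WT lysates. In footprints 3 of the 11 TOP members rose in KO (Eif4b, Pabpc1, Eef1a1), with a median log2 fold change of 0.05. That is 27.3%, beside 30.3% of all members and 8.15% of all genes tested.

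**Figure D3:**
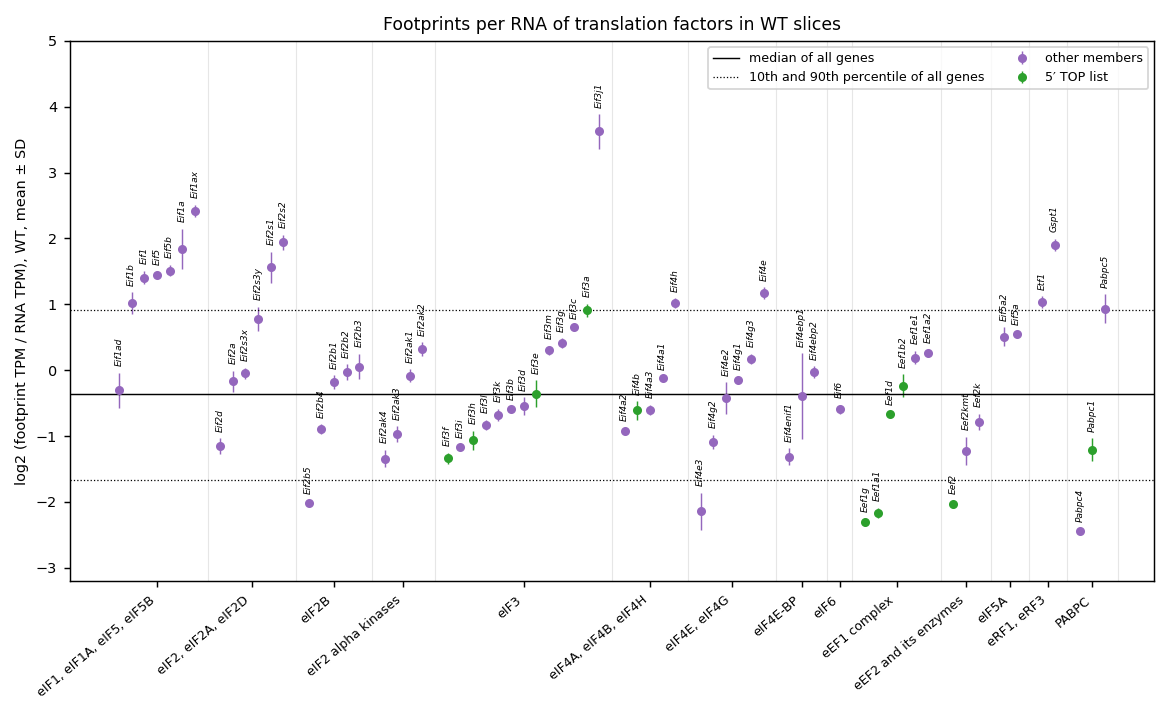
Log2 ratio of footprint TPM to RNA TPM in WT slices (vertical axis), mean ± SD of 4 lysates, for each member, grouped by role along the horizontal axis. The solid line is the median of all genes (-0.36) and the dotted lines are their 10th (-1.67) and 90th (0.92) percentiles; green points are TOP members, of which Eef1g, Eef1a1 and Eef2 lie below the lower dotted line.

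The bases around the annotated start of transcription are shown for 3 TOP members with few footprints per RNA, for Eef1a2 as the paralog of Eef1a1 and for Eif1, since the start is what defines a TOP mRNA. Each line gives 5 bases before the RefSeq start and 25 from it on (GRCm38.p6), on the sense strand, and capitals mark a C followed by at least 5 bases that are each C or T. Eef1a1 (chr9:78481700-78481729, minus strand), Eef2 (chr10:81176626-81176655, plus strand) and Eif3f (chr7:108934410-108934439, plus strand) are TOP members with few footprints per RNA. Eef1a2 (chr2:181156991-181157020, minus strand) and Eif1 (chr11:100319944-100319973, plus strand) are not TOP members.
Eef1a1: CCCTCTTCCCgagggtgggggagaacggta
Eef2: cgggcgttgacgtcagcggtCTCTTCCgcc
Eif3f: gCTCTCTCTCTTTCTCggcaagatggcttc
Eef1a2: tctgcgttctcgctcactggttCTCTCCCT
Eif1: cacaggggcggctatataagtgaatacagg
The run sits at the start of the window in Eef1a1 and Eif3f, lies further in for Eef2 and Eef1a2, and is absent from the window of Eif1. Of 52 members with a promoter entry, 16 held such a run (30.8%), beside 2572 of 10897 genes of the tables (23.6%). Among these were 4 of the 6 TOP members with an entry (66.7%) and 12 of the other 46 (26.1%). The TOP members Eef1b2 and Eif3a held no run and stood at -0.24 and 0.91 in WT log2 footprints per RNA. Pabpc4, the lowest member at -2.44 and not in the TOP list, held none either. Whether runs and footprints per RNA go together was not tested. The annotated start can be some bases off the one used in these cells, and a match is a description of the letters only.

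Levels of the members in WT footprints spanned 3.63 TPM (Eif4ebp1) to 1729 TPM (Eif1), and several paralogs with the same job differed in how footprints and RNA were matched. Eef1a1 RNA was 4767, 5227 and 4651 TPM in KO slices, against 4647, 4886, 4600.4 and 5060.1 TPM in WT slices, and Eef1a2 RNA was 996, 996 and 1101 TPM in KO slices, against 966, 1002, 946 and 945 TPM in WT slices. By the means of the WT slices Eef1a1 had 4.97 times the RNA of Eef1a2 but 0.927 times its footprints. The log2 ratio of footprints to RNA of Eef1a2 exceeded that of Eef1a1 by 2.35 ± 0.18 in KO lysates (SD, n = 3) and by 2.42 ± 0.08 in WT lysates (SD, n = 4). In WT that is 5.36-fold, and the difference lay between 2.34 and 2.53 in each lysate. The opposite order held for Pabpc4 against Pabpc1, with a log2 difference of -1.51 ± 0.06 in KO and -1.23 ± 0.14 in WT lysates.

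For the helicase pair, the log2 ratio of Eif4a2 minus that of Eif4a1 was -0.81 ± 0.10 in KO and -0.80 ± 0.09 in WT lysates, and that of Eif4e2, a translational repressor, minus that of Eif4e was -1.44 ± 0.06 in KO and -1.59 ± 0.20 in WT lysates. Eif2s3y exceeded Eif2s3x by 0.90 ± 0.05 in KO and 0.83 ± 0.12 in WT lysates, and Eif4g3 exceeded Eif4g1 by 0.31 ± 0.05 in KO and 0.31 ± 0.07 in WT lysates. For Eif5a2 against Eif5a the difference was -0.31 ± 0.20 in KO and -0.04 ± 0.15 in WT lysates, and for Eif4ebp2 against Eif4ebp1 it was 0.45 ± 0.67 in KO and 0.36 ± 0.69 in WT lysates, so neither WT value stood clear of its spread. Differences between genotypes in these pairs were not tested. Short reads of close paralogs can be shared between genes, and Eef1a1 in addition has many processed copies in the genome.

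**Figure D4:**
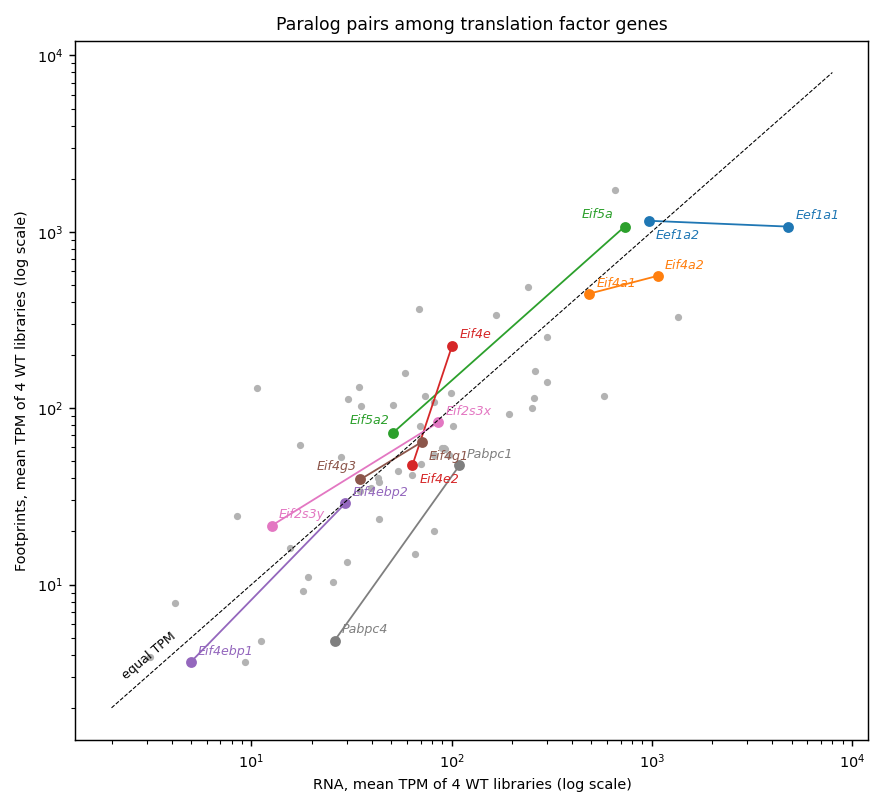
Mean footprint TPM (vertical axis, log scale) against mean RNA TPM (horizontal axis, log scale) of the 4 WT libraries for all members, with the 8 paralog pairs joined by coloured lines and other members in grey. The dashed line marks equal TPM; Eef1a1 and Eef1a2 lie at nearly the same height (1070.2 and 1155 TPM) but 4.97-fold apart in RNA.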

How the data were processed

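Per the submitters' processing notes, the authors used cutadapt 1.7.1, Trimmomatic 0.32, Bowtie2 2.1.0, TopHat2 2.0.9, SAMtools 0.0.19, bedtools and RSEM 1.2.11 with the mm10 build. The deposited tables hold estimated counts and TPM values per gene and library for 14459 genes. The step that set the lowest TPM near unity is not given in the sources used here. Reads shared by paralogs were left as deposited.

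Estimated counts, rounded to whole numbers, went into edgeR 4.0.16 (R 4.3.3), footprints and RNA apart. Genes passed filterByExpr at a minimum count of 10, libraries were scaled by TMM, and a robust quasi-likelihood F-test was adjusted by Benjamini-Hochberg over all genes, with calls at an adjusted p under 0.05. TE was the assay by genotype interaction. Each SE was obtained as the fold change on the log2 scale divided by the root of its F statistic, without sign. The main edgeR fits of footprints, RNA and TE were tested on simulated counts. The simulations did not cover the alternative fits. Simulated counts varied more than Poisson counting gives, whereas the low counts of these data varied less. The simulations therefore cannot check the p-values of such genes. Deviations from the group means of KO and WT libraries with the same replicate number had correlations of -0.109, 0.05 and -0.46 in footprints. In RNA these were -0.07, -0.05 and -0.34. Pairs with unlike numbers were not compared, so these values cannot settle whether the numbers pair the libraries.

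Within each role, up to 3 genes with the smallest footprint p that passed were named, together with the gene with the highest WT footprint TPM. All genes that passed in RNA, 8 paralog pairs and the 4 highest and 4 lowest footprints per RNA were named too. Of each further list, up to 3 genes that passed were named. Ddx3x, Abcf1, Mtor, Eef1b2, Eef1e1, Eef2k, Eef2kmt, Eif1ad, Eif2ak2, Eif3a, Eif3b, Eif3f and Eif3l fall outside this rule and were named after their values were seen. The members and lists were chosen with earlier results of these data known. Symbols matched RefSeq (GRCm38.p6) for 66 of 66 members, which supplied coordinates and start sequences. Alternatives were DESeq2 1.42.0, limma 3.58.1 on log2(TPM + 1) and log2(TPM + 0.1), upper-quartile scaling, no filter, a length trend removed, a replicate block, a lysate block or a ratio per lysate for TE, and each library left out in turn.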

Additional observations from a re-analysis of the deposited data

Results flagged for a closer look

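Among 122 sets of 4 WT values of members, 3 held a library far from the other 3, where chance alone gives about 1 in 20 such sets. Eif3k RNA was 242.6 TPM in WT replicate 1 and 265.5 to 267.2 TPM in the other WT libraries. Eif4ebp1 footprints were 4.18 TPM in WT replicate 2 and 3.38 to 3.52 TPM in the others, which bears on the largest fold change among the genes that rose. Pabpc4 RNA was 24.6 TPM in WT replicate 2 and 26.5 to 26.6 TPM in the others.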

How the results depend on the processing

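With each library left out in turn, the number of members that rose ranged from 8 to 20 in footprints (20 with all libraries) and from 1 to 5 in RNA (6 with all), and the median log2 RNA change from 0.0626 to 0.129 (0.08 with all). With the replicate number as a block, 8 members rose in footprints and 1 in RNA. Whether the numbers pair the samples is not known. Over all genes 2.97% rose in footprints (8.15% without the block) and 0.526% in RNA (2.11% without it). The log2 RNA change of Pabpc1 was 0.0193 with the block. limma on log2(TPM + 0.1) and on log2(TPM + 1) called 3 members higher in RNA each, beside 1.2% and 1.16% of all genes. With a length trend removed, 17 rose in footprints (25.8%, beside 8.46% of all genes) and 1, Eef1b2, fell. The WT median of footprints per RNA was -0.17 with TPM and 0.13 with CPM. The cause of these shifts was not tested. A fit with a library left out also has fewer samples. The other counts and medians of the members stayed within 1.5 times or the spread in 123 fits. Of 758 alternative fits of the 54 log2 changes printed for single genes, 598 kept direction and side of the threshold, 150 lost a call and 2 gained one. In the other 8 the sign turned, for 4 changes that passed the test in neither fit. These were the footprints of Eif4a2 (0.00052 by limma with either pseudocount; -0.0236 to 0.0252 with a library left out), Eif2b1 (-0.00295 to 0.0559) and Pabpc4 (-0.0488 to 0.00504), and the RNA of Pabpc1 (-0.0719 to 0.0266). The count of TE calls among members was 0 in every fit run. The median SE of a member's log2 change was 0.04 in footprints, 0.07 in RNA and 0.08 in TE. Over all genes tested it was 0.05, 0.08 and 0.10. RNA libraries held 4.97 to 9.96 M estimated counts beside 15.57 to 22.71 M for footprints.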
